A study of Mus musculus with 24 samples.

Results

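The PEA3 transcription factors Etv1, Etv4 and Etv5 and 7 feedback genes of the ERK pathway, Dusp4, Dusp6, Spry1, Spry2, Spry4, Spred1 and Spred2, were followed in mouse ventral prostate organoids. They were taken by gene symbol, and all 10 were found among the 54838 genes of the expression table. A gene was tested where it reached 1 FPKM (fragments per unit of transcript length, relative to the size of the library) in at least 5 of the 20 libraries, which 12899 genes did. That filter kept 9 of the 10 genes, and Spry4 did not pass it.

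Organoids are epithelial cultures grown in domes of Matrigel, a gel of basement membrane proteins. The T-ERG group carries the genotype labelled Tmprss2-ERG, and the group the submitters call control carries the genotype labelled Tmprss2-fl/fl-ERG, so both names hold Tmprss2 and ERG. Each genotype has 2 clones, labelled as biological replicates, and each clone has 5 domes, labelled as technical replicates, with 1 RNA library per dome. Organoids came from the ventral prostate at a mouse age of 4 months, and 3000 cells were seeded per dome of 30 µL. The labels do not name the promoter or the cells that drive ERG, nor whether the clones came from separate mice. With 2 clones per genotype, each clone is 1 example of its genotype.

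ERK is the last kinase of a cascade in which growth factor receptors activate RAS, RAF, MEK and then ERK. Active ERK induces the PEA3 factors, a subgroup of the ETS family of DNA-binding proteins, and it also induces its own brakes. DUSP phosphatases remove the activating phosphates from MAP kinases, and Sprouty and Spred proteins act further up, on RAS and RAF. Several of these genes are held down by the repressor Capicua, which leaves its octamer sites when ERK is active. In human prostate cancer, gene fusions place ERG, and less often ETV1 or ETV4, under the control of TMPRSS2.

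Labels and markers were checked first. Mouse Erg lay between 0.54 and 3.17 FPKM in T-ERG libraries and between 0.32 and 2.23 FPKM in control libraries, so it did not separate the genotypes. No human ERG was among the genes listed, which are mouse genes, so ERG made from a human sequence could not be checked. The labels do not say which form was used. Tmprss2 lay between 32.3 and 57.2 FPKM in T-ERG and between 85.2 and 107 FPKM in control. The prostate epithelium markers Epcam, Cdh1, Krt5, Krt8, Krt14, Krt18, Trp63 and Hoxb13 were present in every library, and the secretory marker Pbsn was at 0 in all 20 libraries. Summed over 8 fibroblast markers, levels were 0.54 to 1.41 FPKM in T-ERG clone 2, 4.25 to 6.57 in T-ERG clone 1, 0.61 to 3.19 in control clone 2 and 2.30 to 3.76 in control clone 1, with the collagen gene Col1a2 and Lum at 0 in all 20 libraries. In clone 1 of both genotypes most of this sum was Dcn, the only fibroblast marker tested, which was lower in clone 2 than in clone 1 by limma in T-ERG (-1.62 log2 units) and in control (-1.51), and its part in the clone differences given here was not tested. The 7 leukocyte markers summed to at most 12.3 FPKM, nearly all of it Cd68, with Ptprc at 0 throughout, and the 5 endothelial markers to at most 0.64 FPKM. FPKM values summed to 728255 to 794589 per library and 14621 to 15457 genes were above 0. Read depth is unknown because FPKM keeps no counts. FPKM is scaled by length, so levels can be set side by side between genes. In bulk RNA, fewer expressing cells and less RNA per cell cannot be told apart.

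Promoter windows from RefSeq (build GRCm38.p6, 250 bases before to 50 bases after an annotated start, printed in the direction of the gene) were matched by symbol for 7 of the 10 genes. They are shown because Capicua is a known repressor of several of these genes. No window was available for Etv4, Dusp4 or Spry4, so their promoters were not searched. The windows of Dusp6, Spry2 and 2 annotated starts of Etv5 follow, with Capicua octamers in capitals.
Dusp6 promoter, chr10:99262981-99263280, plus strand: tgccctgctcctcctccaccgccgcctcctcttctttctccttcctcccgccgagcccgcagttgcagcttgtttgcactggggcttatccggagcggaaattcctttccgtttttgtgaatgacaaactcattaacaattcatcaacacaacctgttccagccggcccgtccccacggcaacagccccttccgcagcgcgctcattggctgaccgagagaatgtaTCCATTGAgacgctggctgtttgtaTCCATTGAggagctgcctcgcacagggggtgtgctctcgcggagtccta
Spry2 promoter, chr14:105896770-105897069, minus strand: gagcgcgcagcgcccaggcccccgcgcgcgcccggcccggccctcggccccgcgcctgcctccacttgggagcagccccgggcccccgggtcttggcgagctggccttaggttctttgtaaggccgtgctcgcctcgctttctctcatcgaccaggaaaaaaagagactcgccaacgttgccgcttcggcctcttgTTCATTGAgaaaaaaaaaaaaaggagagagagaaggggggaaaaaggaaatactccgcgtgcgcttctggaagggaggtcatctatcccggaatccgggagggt
Etv5 promoter at the first start, chr16:22439521-22439820, minus strand: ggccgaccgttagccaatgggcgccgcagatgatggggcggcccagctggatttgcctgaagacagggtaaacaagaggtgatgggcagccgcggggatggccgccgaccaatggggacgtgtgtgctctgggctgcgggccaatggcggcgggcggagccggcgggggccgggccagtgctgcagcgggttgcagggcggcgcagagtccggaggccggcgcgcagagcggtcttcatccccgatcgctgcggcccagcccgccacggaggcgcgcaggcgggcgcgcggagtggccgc
Etv5 promoter at the second start, chr16:22438319-22438618, minus strand: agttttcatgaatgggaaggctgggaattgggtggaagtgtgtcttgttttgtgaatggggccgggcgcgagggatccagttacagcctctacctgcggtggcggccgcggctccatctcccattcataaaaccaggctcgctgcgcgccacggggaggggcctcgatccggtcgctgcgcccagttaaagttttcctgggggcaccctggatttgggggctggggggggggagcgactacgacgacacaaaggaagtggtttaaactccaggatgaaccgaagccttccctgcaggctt

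A set of 4 octamers was searched on both strands, namely TGAATGAA, TGAATGGA, TCAATGAA and TCAATGGA. The Dusp6 window held TCAATGGA at 2 places on the strand opposite to the gene, and these are the paired capitals at bases -24 to -17 and 2 to 9, counted from the start site. The Spry2 window held 1 TCAATGAA on the opposite strand, at bases -54 to -47. None of these octamers was in the windows of Etv1, Etv5, Spry1, Spred1 or Spred2, which says only that those letters are not in those 300 bases. Among all 32851 windows of the same length, 3.84% held at least 1 of these octamers. The ETS core GGAA, on either strand, was in 8 of the 9 windows of these genes and in 96% of all windows. The exception was the first Etv5 window, while the second held 6. The longer ETS word CCGGAAGT and the AP-1 word TGANTCA were in none of the 9 windows, against 3.89% and 7.81% of all windows. No octamer overlapped an ETS core or an AP-1 word. A match of letters is a description and does not show that a factor is bound.

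Between the 2 T-ERG clones, 2 of the 9 tested genes passed the test, Etv4 and Etv5, both higher in clone 2 than in clone 1, and none was lower. These calls come from limma at a Benjamini-Hochberg adjusted p below 0.05, and the same rule called 17.0% of all 12899 genes higher and 13.5% lower. The median difference of the 9 genes was 0.22 log2 units, against 0.03 over all genes. Every library of T-ERG clone 2 lay above every library of clone 1 for Etv4 alone among the 9, and 12.9% of all genes showed such a separation. Domes are technical replicates of 1 clone, so p-values between clones measure the spread between domes and compare those clones only.

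Between the 2 control clones, 7 of the 9 genes were higher in clone 2 than in clone 1 and none was lower: Etv4, Etv5, Dusp4, Dusp6, Spry1, Spred1 and Spred2. The background was 25.1% of all genes called higher and 13.2% called lower. For all 7 genes, every one of the 5 libraries of clone 2 lay above every library of clone 1, a separation in that direction that 18.8% of all genes showed. The median difference over the 9 genes was 0.68 log2 units, against 0.10 over all genes.

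**Figure D1:**
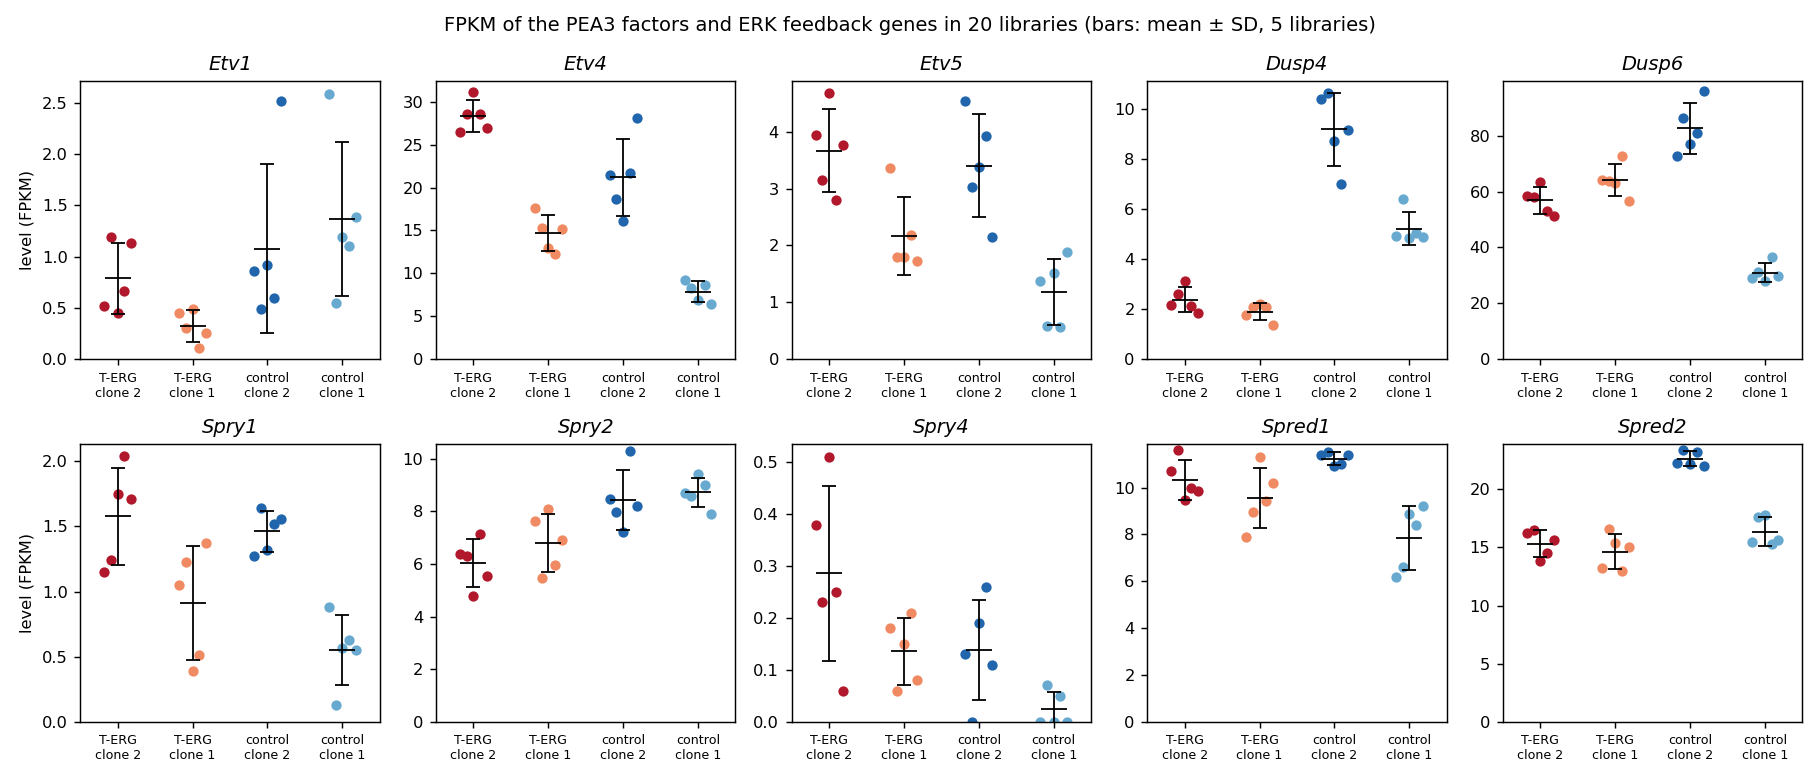
FPKM of each gene (vertical axis, linear, from 0, one scale per panel) in the 20 libraries, grouped by clone, where points are libraries and bars are the mean ± SD of 5 libraries. Dusp4 lies between 1.35 and 3.11 FPKM in T-ERG, below all control libraries, while Dusp6 and Etv4 are lowest in control clone 1.

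Etv4 was the most abundant PEA3 factor in every clone (ENSMUSG00000017724, chromosome 11, 101769747 to 101785310). Its libraries held 26.5, 28.6, 31.2, 28.6 and 27.0 FPKM in T-ERG clone 2 and 17.6, 15.3, 13, 12.3 and 15.2 FPKM in T-ERG clone 1. Control clone 2 had 21.5, 18.7, 16.1, 21.7 and 28.1 FPKM, and control clone 1 had 9.23, 8.25, 6.85, 8.64 and 6.40 FPKM. All libraries of control clone 1 were below the other 15, and neighbouring clones higher in the order overlapped. Etv4 was 1.93-fold higher in T-ERG clone 2 than in T-ERG clone 1 (0.91 ± 0.09 log2 units, SE, limma adjusted p = 3.10e-05). It was 2.69-fold higher in control clone 2 than in control clone 1 (1.31 ± 0.14, limma adjusted p = 2.88e-05). Thus Etv4 rose in clone 2 of both genotypes.

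Etv5 was several-fold less abundant (ENSMUSG00000013089, chromosome 16, 22381313 to 22439570). It had 3.94, 3.15, 4.69, 2.80 and 3.77 FPKM in T-ERG clone 2 and 3.36, 1.80, 1.80, 2.19 and 1.72 FPKM in T-ERG clone 1. The values were 4.54, 3.03, 3.39, 3.93 and 2.15 FPKM in control clone 2 and 1.38, 0.58, 1.51, 0.57 and 1.88 FPKM in control clone 1. The T-ERG clones overlapped because 1 library of clone 1 reached 3.36 FPKM, and the control clones did not overlap. In T-ERG, Etv5 was 1.69-fold higher in clone 2 than in clone 1 (0.57 ± 0.17 log2 units, limma adjusted p = 0.0233). In control it was 2.88-fold higher in clone 2 (1.03 ± 0.22, limma adjusted p = 0.00322). The T-ERG call was lost when library 2, 3 or 5 of clone 1, or library 8 or 10 of clone 2, was left out, with differences of 0.49 to 0.54 and limma adjusted p-values of 0.0507 to 0.0547.

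Etv1, the PEA3 factor most often fused in human prostate cancer, was low (ENSMUSG00000004151, chromosome 12, 38780082 to 38870483). It ranged from 0.45 to 1.19 FPKM in T-ERG clone 2, from 0.11 to 0.49 in T-ERG clone 1, from 0.49 to 2.52 in control clone 2 and from 0.55 to 2.59 in control clone 1. Clones next to each other in level all overlapped. Its differences between clones were 0.43 ± 0.18 log2 units in T-ERG and -0.21 ± 0.28 in control, and neither passed the limma test (adjusted p = 0.0921 and 0.602). In T-ERG the test was passed after quantile normalization (limma adjusted p = 0.029) and without the intensity trend (limma adjusted p = 0.0414).

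Dusp6, the phosphatase that acts on ERK itself in the cytoplasm, was the most abundant of the 10 genes (ENSMUSG00000019960, chromosome 10, 99263231 to 99267489). T-ERG clone 2 had 58.4, 58.1, 63.5, 52.9 and 51.2 FPKM, and T-ERG clone 1 had 64.2, 63.9, 63.2, 72.6 and 56.6 FPKM. Control clone 2 had 72.6, 86.4, 76.9, 81.1 and 96.2 FPKM, and control clone 1 had 29.2, 31.2, 27.8, 36.6 and 29.7 FPKM. By their means both T-ERG clones lay between the control clones and overlapped each other, with every library of control clone 1 below them and the highest T-ERG library level with the lowest of control clone 2. Between T-ERG clones, the difference was -0.17 ± 0.07 log2 units, with a 95% interval of -0.34 to -0.01 (limma adjusted p = 0.11). Without library 5 of T-ERG clone 1 it became -0.21 and passed the test (limma adjusted p = 0.0485). Between control clones, Dusp6 was 2.68-fold higher in clone 2 (1.39 ± 0.09, limma adjusted p = 3.81e-07).

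Dusp4, a nuclear phosphatase of ERK and other MAP kinases, showed another order (ENSMUSG00000031530, chromosome 8, 34807610 to 34819894). T-ERG clone 2 had 2.14, 2.60, 3.11, 2.13 and 1.84 FPKM, and T-ERG clone 1 had 1.75, 2.07, 2.18, 2.08 and 1.35 FPKM. Control clone 2 had 10.4, 10.6, 8.71, 6.97 and 9.15 FPKM, and control clone 1 had 4.91, 6.37, 4.83, 5.03 and 4.89 FPKM. All 10 T-ERG libraries were below all 10 control libraries, and control clone 1 was wholly below control clone 2. The difference between T-ERG clones was 0.22 ± 0.14 log2 units (limma adjusted p = 0.285). Between control clones it was 0.70 ± 0.12 (limma adjusted p = 8.29e-04).

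Sprouty genes encode inhibitors of signalling from receptors to RAS and RAF, and they did not share 1 pattern. Spry1 was low, with 1.15, 1.24, 1.75, 2.04 and 1.71 FPKM in T-ERG clone 2 and 1.05, 1.23, 0.39, 0.51 and 1.37 FPKM in T-ERG clone 1. It had 1.27, 1.64, 1.32, 1.52 and 1.56 FPKM in control clone 2 and 0.88, 0.13, 0.57, 0.63 and 0.55 FPKM in control clone 1. The T-ERG clones overlapped and the control clones were separate. The T-ERG difference of 0.45 ± 0.19 log2 units did not pass (limma adjusted p = 0.0974), and Spry1 was higher in control clone 2 than in control clone 1 by 0.68 ± 0.16 (limma adjusted p = 0.00579).

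Spry2 lay between 4.78 and 7.16 FPKM in T-ERG clone 2, 5.45 and 8.10 in T-ERG clone 1, 7.22 and 10.3 in control clone 2, and 7.89 and 9.41 in control clone 1. Its clones overlapped in each genotype, with differences between clones of -0.15 ± 0.13 in T-ERG and -0.05 ± 0.10 log2 units in control (limma adjusted p = 0.427 and 0.725). The control interval of -0.26 to 0.16 contains no rise of the size seen for Spry1 or Dusp6. Spry4 was between 0.06 and 0.51 FPKM in T-ERG clone 2, 0.06 and 0.21 in T-ERG clone 1, 0 and 0.26 in control clone 2, and 0 and 0.07 in control clone 1. It was above 0 in 16 libraries and reached 1 FPKM in none, so no fold change is given.

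Spred genes encode inhibitors of RAS activation that recruit neurofibromin to the membrane. Spred1 had 10.7, 11.6, 9.45, 9.99 and 9.87 FPKM in T-ERG clone 2 and 7.89, 8.95, 11.3, 9.44 and 10.2 FPKM in T-ERG clone 1. Control clone 2 had 11.4, 11.5, 10.9, 11 and 11.4 FPKM and control clone 1 had 6.16, 6.62, 8.85, 8.41 and 9.23 FPKM. The T-ERG clones overlapped, and control clone 2 was above control clone 1 throughout. The difference was 0.10 ± 0.10 log2 units between T-ERG clones (limma adjusted p = 0.469) and 0.48 ± 0.11 between control clones (limma adjusted p = 0.00467).

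Spred2 had 16.2, 16.5, 13.8, 14.5 and 15.6 FPKM in T-ERG clone 2 and 13.2, 16.6, 15.4, 13 and 15 FPKM in T-ERG clone 1. In control it had 22.3, 23.4, 22.2, 23.2 and 22 FPKM in clone 2 and 15.5, 17.6, 17.8, 15.3 and 15.6 FPKM in clone 1. Control clone 2 stood above the other 3 clones, which overlapped their neighbours in the order. Its difference was 0.07 ± 0.08 log2 units between T-ERG clones (limma adjusted p = 0.595) and 0.45 ± 0.06 between control clones (limma adjusted p = 1.96e-04).

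**Figure D2:**
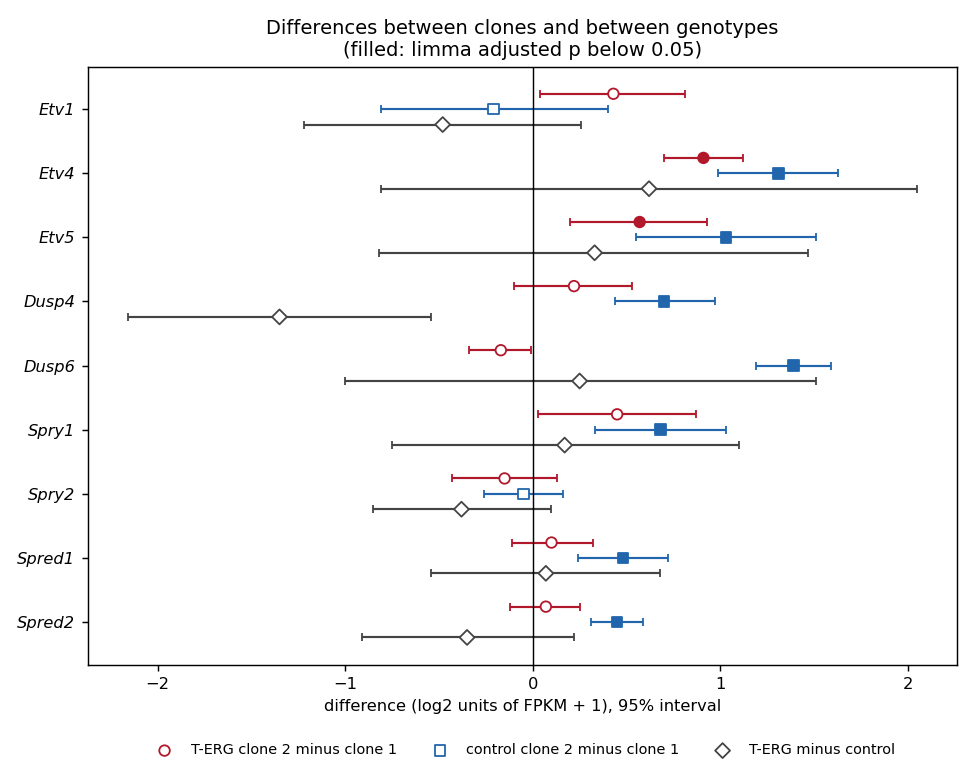
Differences in log2 units of FPKM + 1 (horizontal axis) for the 9 tested genes, with 95% intervals: clone 2 minus clone 1 in T-ERG (circles) and in control (squares), and T-ERG minus control over clone means (diamonds). Filled symbols passed an adjusted p of 0.05: 2 of 9 circles, 7 of 9 squares and no diamond.

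Whether the clone 2 minus clone 1 difference was unlike in the 2 genotypes was tested with an interaction term over all 20 libraries. The term keeps the sign, so differences of like size and opposite direction can also pass. Dusp6 (-1.56 ± 0.12 log2 units, limma adjusted p = 2.89e-09) and Spred2 (-0.38 ± 0.10, limma adjusted p = 0.00718) passed, both with the smaller clone difference in T-ERG. These 2 of 9 compare with 26.4% of all genes called in either direction, 16.7% lower and 9.75% higher. Etv4 and Etv5 did not pass, at -0.40 ± 0.18 and -0.46 ± 0.28 (limma adjusted p = 0.107 and 0.246). Their intervals, -0.77 to -0.03 and -1.04 to 0.12, leave room for a sizeable gap.

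Dusp4 (-0.49 ± 0.18, limma adjusted p = 0.0516) and Spred1 (-0.38 ± 0.14, limma adjusted p = 0.0598) lay just outside the threshold. Dusp4 passed when library 2 of control clone 1, library 9 of control clone 2, library 5 of T-ERG clone 1 or library 10 of T-ERG clone 2 was left out. Spred1 passed without library 3 or 5 of control clone 1, library 1 of T-ERG clone 1 or library 9 of T-ERG clone 2. Etv4 passed without library 8 and Etv1 without library 10 of control clone 2 (limma adjusted p = 0.0381 and 0.0385). Clone numbers are only names and link no clone of one genotype to a clone of the other. With the T-ERG numbers swapped, a choice added after seeing the data, Dusp6 and Spred2 again passed, at -1.22 and -0.51, and 7 of the 9 genes passed in all, against 43.1% of all genes under the swapped numbers.

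No gene passed the comparison of genotypes, which set 2 T-ERG clone means against 2 control clone means. None of the 9 was called, and 0 of 12899 genes were (0%), with a smallest limma adjusted p of 0.281. At an unadjusted p below 0.05, 1089 genes (8.44%) passed, and Dusp4 was the one among the 9. The median of the 9 differences was 0.07 log2 units, against 0.01 over all genes. On simulated data this comparison recovered 0% of genes changed by 1 log2 unit, 31.2% of those changed by 2 and 80% of those changed by 4. In that simulation, which changed a small share of genes at random, a difference of 1 log2 unit was thus not detected with 2 clones per genotype. Recovery can differ from gene to gene, and the SE among the 9 ran from 0.18 (Spry2) to 0.55 (Etv4).

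Dusp4 averaged 2.12 ± 0.475 FPKM in T-ERG and 7.18 ± 2.34 FPKM in control (SD over 10 libraries each). On clone means the difference was -1.35 ± 0.31 log2 units, with a 95% interval of -2.16 to -0.54 (limma adjusted p = 0.574). Its T-ERG libraries were all below its control libraries, as were those of 3.70% of all tested genes, while none of the 9 genes had all T-ERG libraries above all control libraries (2.50% of all genes). Leaving out each clone in turn gave differences from -1.0 (without control clone 2) to -1.70 (without control clone 1). Treating all 20 libraries as independent gave a limma adjusted p of 6.10e-07, and modelling the clone as a random block gave 5.60e-04. The first fit ignores the clone, and the second allows for it by a correlation shared by all genes. Both still count libraries, not clones, as the replicates. They called 36.7% and 10.8% of all genes, and neither p-value stands for a difference between genotypes.

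Both T-ERG clone means were below both control clone means for 4 of the 9 genes, Etv1, Dusp4, Spry2 and Spred2, against 23.2% of all genes. Both were above for none of the 9, against 21.7%. Spry2 differed by -0.38 ± 0.18 log2 units (95% interval -0.85 to 0.10), Spred2 by -0.35 ± 0.21 (-0.91 to 0.22) and Etv1 by -0.48 ± 0.28 (-1.22 to 0.26), with limma adjusted p-values of 0.574 to 0.598. Etv4 averaged 21.5 FPKM in T-ERG and 14.5 FPKM in control, a difference of 0.62 ± 0.55 log2 units. Dusp6 averaged 60.5 FPKM in T-ERG and 56.8 FPKM in control, a difference of 0.25 ± 0.48. The interval of Etv4 was -0.81 to 2.05 and that of Dusp6 was -1.0 to 1.51.

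Control clone 1 set the sign of several of these differences. It had the lowest of the 4 clone means for Etv4, Etv5, Dusp6, Spry1 and Spred1, which is 5 of 9, against 39.6% of all genes. All 5 of its libraries were below the other 15 for Etv4 and Dusp6, against 9.28% of all genes. Without this clone, the T-ERG minus control difference became -0.03 for Etv4, -0.19 for Etv5, -0.44 for Dusp6, -0.17 for Spry1 and -0.17 for Spred1, each of which was positive with it.

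Over libraries, 5 of the 9 genes varied together, and they are grouped here after their values were seen. Etv4, Etv5, Dusp6, Spry1 and Spred1 had positive correlations with each other over 20 libraries, from 0.50 (Spry1 with Spred1) to 0.82 (Etv4 with Spry1). Etv4 with Etv5 had Pearson's r of 0.78, Etv4 with Dusp6 0.72 and Dusp6 with Spred1 0.72. Dusp4 followed Spred2 instead (r = 0.84) and Spry2 (r = 0.59), and its r with Dusp6 was 0.11 and with Etv4 -0.14. Spred2 had r of 0.44 with Spred1 and 0.38 with Dusp6, so no clean line divided the genes. Etv1 had its highest r with Dusp4 (0.44) and its lowest with Dusp6 (-0.33). Over all 36 pairs the median r was 0.26, with 24 positive, against a median of 0.01 and 51.3% positive over all pairs of tested genes. The libraries are 5 from each of 4 clones and share those clones, so these values are descriptions.

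Within clones this pattern was not seen. After subtracting each clone's mean, the median r of the 36 pairs was -0.07, with 12 positive, against 0.00 and 50.3% positive over all pairs of genes. Etv4 with Etv5 became -0.21, Dusp4 with Spred2 -0.02, Dusp6 with Spred1 -0.02 and Etv4 with Spry1 0.39. These deviations are between technical replicates, and low genes such as Spry1 and Etv1 are imprecise. A low r here therefore does not show that the genes vary apart. The median over libraries was 0.45 without T-ERG clone 2 and -0.15 without control clone 2.

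**Figure D3:**
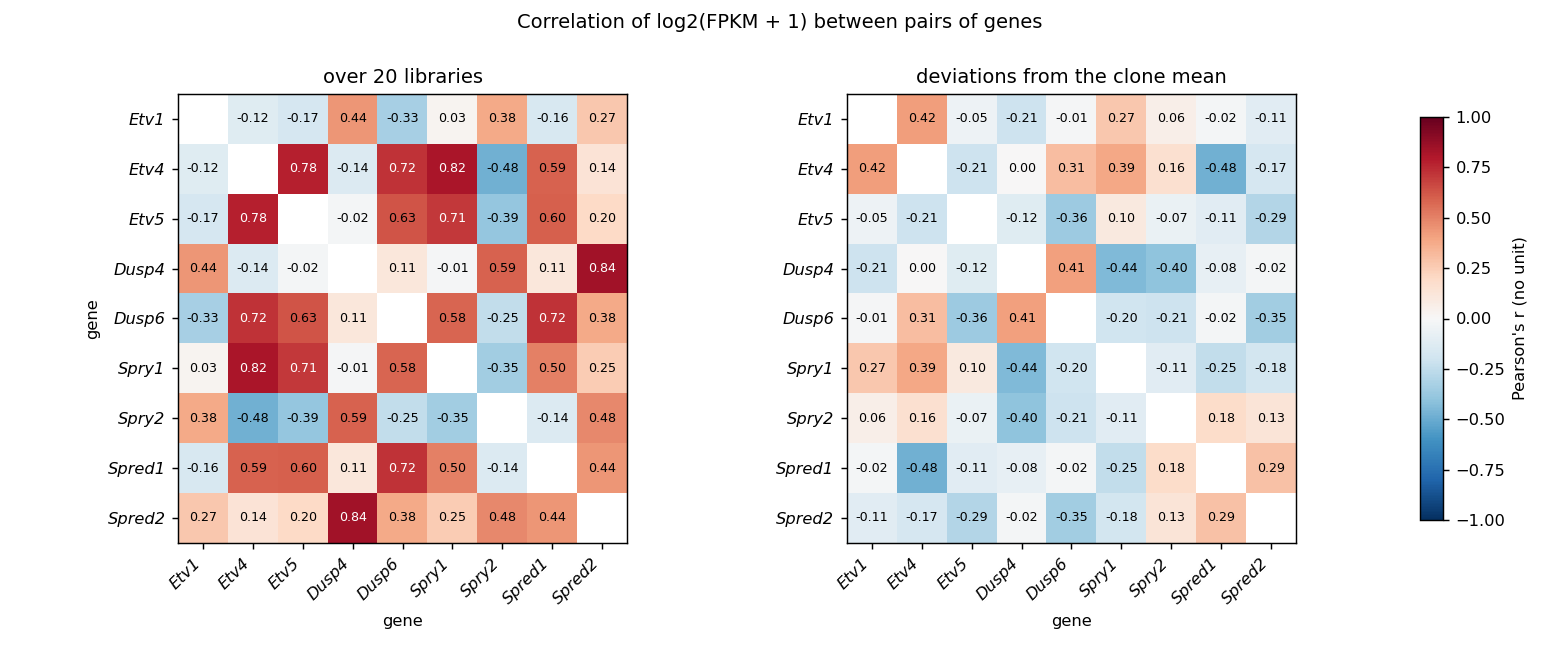
Pearson's r of log2(FPKM + 1) for each pair of the 9 tested genes, over 20 libraries (left) and for deviations from the clone mean (right), on a colour scale from -1 to 1. The block of Etv4, Etv5, Dusp6, Spry1 and Spred1 is positive on the left, and Etv4 with Etv5 is 0.78 on the left and -0.21 on the right.

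Other genes were more like Dusp6 over the 20 libraries than any of the 9. The 5 with the highest r were Thbs1 (0.97), Tmsb10 (0.97), Cp (0.97), Galnt6 (0.96) and Dynap (0.96). Thbs1, which encodes the matrix protein thrombospondin 1, averaged 20.9 FPKM in T-ERG clone 2, 27.6 in T-ERG clone 1, 47.9 in control clone 2 and 3.46 in control clone 1, the same order as Dusp6. Tmsb10, an actin-binding thymosin, averaged 400.1, 513, 763 and 140.3 FPKM in the same clones. A total of 697 genes had a higher r with Dusp6 than Etv4 did. For Etv5 the 5 highest were Pdia3 (0.92), Tspan31 (0.90), Fam49b (0.90), Selenof (0.89) and E2f1 (0.88). E2f1, a transcription factor of S-phase entry, averaged 5.69 FPKM in T-ERG clone 2, 3.39 in T-ERG clone 1, 3.80 in control clone 2 and 0.99 in control clone 1. Here 282 genes had a higher r with Etv5 than Etv4 did.

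Other genes that ERK induces differed between clones as well. Between the T-ERG clones 5 of 14 tested rose in clone 2 and none fell, against 17.0% and 13.5% of all genes, with a median difference of 0.14 log2 units against 0.03 over all genes. The largest rises were of Ereg, the EGF receptor ligand epiregulin (2.18 ± 0.09), Fosl1, a subunit of AP-1 (1.13 ± 0.12), Fos (0.72 ± 0.21) and Epha4 (0.50 ± 0.12). Between the control clones 9 of the 14 rose and 2 fell, against 25.1% and 13.2% of all genes, with a median of 0.70 against 0.10 over all genes. Lif, a cytokine, averaged 25.3 FPKM in control clone 2 and 3.19 in control clone 1 (2.68 ± 0.16 log2 units). Fosl1 rose by 1.76 ± 0.11, Plaur, the urokinase receptor, by 1.71 ± 0.11, and Ccnd1, cyclin D1, by 1.38 ± 0.03. The 2 that fell were Fos and Phlda1. The difference of clone differences passed for 12 of 14, with 9 lower and 3 higher in T-ERG, against 26.4% of all genes (16.7% lower and 9.75% higher). Such counts depend on the clone numbers, which are only names. Lif at -2.62 and Ereg at 2.19 mark the ends. No gene of this list passed between genotypes.

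Among 11 tested phosphatases and feedback inhibitors outside the 10 genes, 2 rose and 2 fell in T-ERG clone 2 relative to clone 1, with a median of -0.03 log2 units against 0.03 over all genes. These shares were near the 17.0% higher and 13.5% lower of all genes. Dusp9 (0.86 ± 0.17) and Dusp5 (0.38 ± 0.13) rose, and Dusp10 (-0.60 ± 0.11) and Errfi1, an inhibitor of the EGF receptor (-0.34 ± 0.09), fell. Between control clones 7 rose and 3 fell, against 25.1% and 13.2% of all genes, with a median of 0.56 against 0.10. Dusp7, another cytoplasmic ERK phosphatase, averaged 158 FPKM in T-ERG clone 2 and 161 in T-ERG clone 1, and 154 FPKM in control clone 2 and 85.1 in control clone 1 (0.85 ± 0.06 log2 units in control). Dusp7 therefore shared with Dusp6 a low level in control clone 1 and an interaction below 0 (-0.89, limma adjusted p = 6.79e-09). In control clone 2, Dusp5 also rose by 0.65 ± 0.15 and Lrig1, which limits receptor levels, by 0.62 ± 0.10, and Errfi1 fell by 0.45 on the log2 scale.

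Receptors that feed ERK had median differences of -0.08 log2 units between T-ERG clones and -0.39 between control clones, against 0.03 and 0.10 over all genes. Of 8 tested, Fgfr2 (-0.64 ± 0.05 log2 units) and Erbb3 (-0.22 ± 0.06) fell and Met (0.66 ± 0.11) rose in T-ERG clone 2 relative to clone 1, where 13.5% of all genes fell and 17.0% rose. In control clone 2 relative to clone 1, 4 fell and 1 rose, against 13.2% of all genes that fell and 25.1% that rose. Those that fell were Fgfr2 (-1.70 ± 0.09), Fgfr3 (-1.49 ± 0.15), Erbb3 (-0.66 ± 0.06) and Erbb2 (-0.58 ± 0.06), and Met (0.31 ± 0.10) rose. Fgfr2, a receptor of fibroblast growth factors, averaged 37.9 FPKM in control clone 2 and 125 FPKM in control clone 1, the clone with the lowest Etv4 and Dusp6.

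The kinases and adaptors of the cascade showed small differences in both directions. Of 20 tested, 3 rose and 4 fell between T-ERG clones and 5 rose and 3 fell between control clones, with medians of -0.07 log2 units in T-ERG and -0.02 in control. These shares were near those of all genes, 17.0% higher and 13.5% lower in T-ERG and 25.1% higher and 13.2% lower in control. The largest were Shc1 (-0.51 ± 0.04) and Nras (0.47 ± 0.13) in T-ERG and Shc1 (-0.54 ± 0.04) and Nras (0.52 ± 0.16) in control. Of 8 repressors and degraders of PEA3 factors, including Cic, which encodes Capicua, and the ubiquitin ligase genes Rfwd2 and Det1, Etv3 was the one called (0.24 ± 0.06 in T-ERG and 0.21 ± 0.07 in control). Cic differed by -0.19 ± 0.07 between T-ERG clones and by 0.04 ± 0.07 between control clones, and neither passed (limma adjusted p = 0.0575 and 0.68).

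Proliferation genes moved with the clones too. All 10 tested rose in clone 2 relative to clone 1 in both genotypes, where 17.0% of all genes rose in T-ERG and 25.1% in control. Median differences were 1.05 log2 units in T-ERG and 1.23 in control, against 0.03 and 0.10 over all genes. Their summed FPKM was 528 to 556 in T-ERG clone 2, 277 to 294 in T-ERG clone 1, 308 to 317 in control clone 2 and 126 to 156 in control clone 1. Clone means of Etv4, Etv5 and Spry1 had the same order as this sum, highest in T-ERG clone 2 and lowest in control clone 1. For each of these, libraries of control clone 2 overlapped those of both T-ERG clones. The share of all genes with this order was not counted. Spry4, which was not tested, had this order by 0.138 FPKM in control clone 2 against 0.136 in T-ERG clone 1. Dusp6 was also lowest in control clone 1 and was highest in control clone 2. Summed luminal markers were 2461 to 2617 FPKM in T-ERG clone 2 and 3639.9 to 3926 in T-ERG clone 1, against 6149 to 6312 in control clone 2 and 6003 to 6598 in control clone 1. Krt19 made up most of that sum, with clone means of 1869.7 FPKM in T-ERG clone 2, 2848 in T-ERG clone 1, 4747 in control clone 2 and 5158 in control clone 1. Single luminal markers moved apart. Of 9 tested, 2 rose and 7 fell in T-ERG clone 2 relative to clone 1, against 17.0% and 13.5% of all genes. Krt8 (0.60 ± 0.05 log2 units) and Krt18 (0.96 ± 0.06) were the 2 that rose. In control clone 2, 6 rose and 3 fell, against 25.1% and 13.2% of all genes. Summed basal markers were 25721 to 26023 FPKM in T-ERG clone 2, 23598 to 24743 in T-ERG clone 1, 18857 to 19219 in control clone 2 and 19933 to 22818 in control clone 1. Krt5, Krt14 and Krt15 made up most of that sum, and they did not move together. Krt14 averaged 11142 FPKM in T-ERG clone 2, 8891 in T-ERG clone 1, 5179.9 in control clone 2 and 3289 in control clone 1. Krt15 averaged 3183, 6427, 6445 and 12019 FPKM in the same clones. Of 10 basal markers, 6 rose and 2 fell between T-ERG clones and 6 rose and 3 fell between control clones, against the same shares of all genes. The part of proliferation or of luminal and basal markers in the levels of the 10 genes was not tested.

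**Figure D4:**
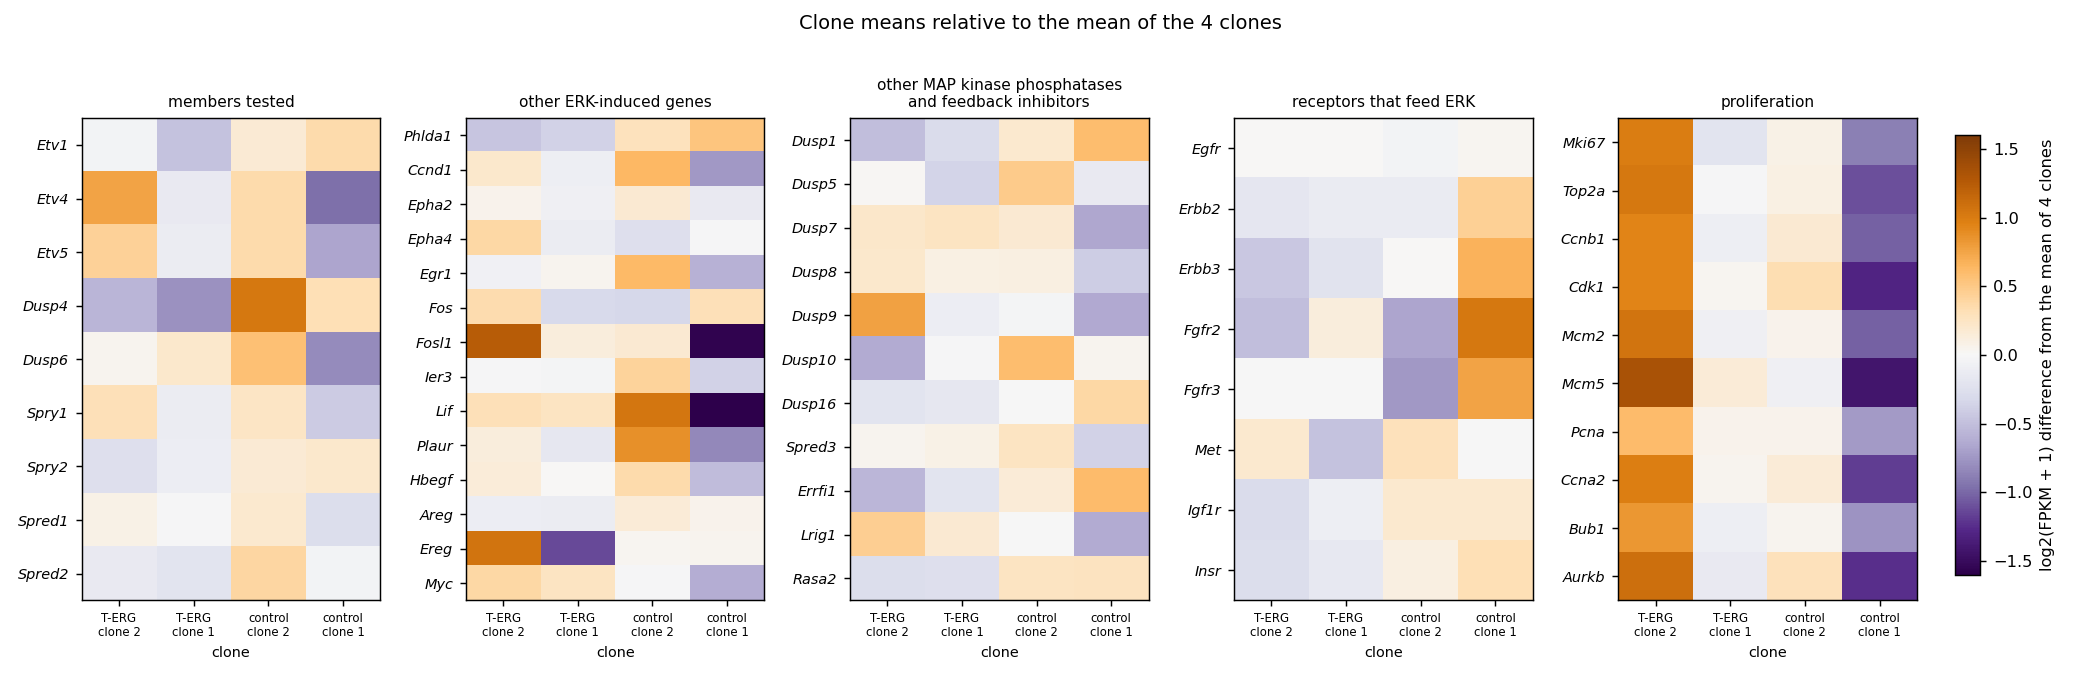
Clone means of log2(FPKM + 1) minus the mean of the 4 clones (colour, in log2 units, ending at 1.6) for the 9 tested genes and 4 lists. Etv4, Fosl1 and the proliferation genes are lowest in control clone 1, where Fgfr2 and Fgfr3 are highest.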

How the data were processed

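RNA was sequenced from 20 libraries as 40-base read pairs after 12 cycles of amplification, per the labels' protocols. The deposited values are log2(FPKM + 1). RSEM 1.3.0, DESeq2 and build mm10 are named in the submitters' processing notes, with aligner, annotation and strand use not given in the sources used here. All values (100%) returned an FPKM with 2 decimals, within 0.001 hundredths. Pooling of barcoded samples before amplification and estimated rather than observed counts can affect low genes most.

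One header is on 2 columns of T-ERG clone 2, so these libraries have a group and no number. Another 4 libraries, of whole genomes, were not analysed. Some list genes are not reported here.

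Differences were fitted with limma 3.58.1 in R 4.3.3 (empirical Bayes, intensity trend, two-sided, Benjamini-Hochberg over 12899 genes). Genotypes were compared on 4 clone means, clones over 5 libraries each, and their difference by an interaction. A log2(FPKM + 1) difference understates the change of low genes. Dome numbers did not pair libraries. The fits were tested on simulated data. Alternatives changed the pseudocount, filter, scaling, trend, replicate unit and libraries.

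The 10 genes and the lists were chosen with earlier results of these data known. The rule for names took the 10 genes, up to 4 list genes per comparison that passed or differed most, and the 5 genes most correlated with Dusp6 and with Etv5. List genes beyond these were named after their values were seen. RefSeq promoter windows (GRCm38.p6) were searched as written. Figures were drawn with matplotlib 3.10.9.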

Additional observations from a re-analysis of the deposited data

Results flagged for a closer look

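Within the 40 groups of 5 libraries (10 genes in 4 clones), 1 library stood far from the rest. Dusp4 was 6.37 FPKM in library 2 of control clone 1, against 4.83 to 5.03 FPKM in the other libraries. On the scale of log2(FPKM + 1), its gap made up 0.856 of the group's range, above the critical value of 0.71. Chance alone puts about 1 in 20 such groups past that value. Without this library the Dusp4 difference between control clones was 0.77 ± 0.12 log2 units, against 0.70 ± 0.12 with it.

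The difference between clone 2 and clone 1 was unlike in the 2 genotypes, by the interaction term of limma, for Dusp6 (-1.56 log2 units) and Spred2 (-0.38). The same test passed for 26.4% of all genes, and for 43.1% once the T-ERG clone numbers, which are only names, were swapped. It also passed for 15 list genes given here, up to 4 per list. Of ERK-induced genes these were Lif (-2.62), Ereg (2.19), Plaur (-1.43) and Fos (1.38). Of phosphatases and feedback inhibitors they were Dusp10 (-1.16), Dusp7 (-0.89) and Spred3 (-0.64). Of receptors they were Fgfr3 (1.47), Fgfr2 (1.06), Erbb2 (0.53) and Erbb3 (0.44). The cascade gave Map2k1 (-0.51), Grb2 (-0.48) and Rasa1 (-0.43), and Vprbp, a subunit of ubiquitin ligases, differed by 1.01. These signs and sizes rest on the clone numbers. Fos differed by 0.72 log2 units between T-ERG clones and by -0.66 between control clones, and Dusp10 by -0.60 and 0.56. Vprbp (0.48 and -0.53) and Map2k1 (-0.24 and 0.26) were likewise opposite in sign and near in size. Swapped numbers would leave little of such gaps. Lif, by contrast, differed by 0.06 and 2.68.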

How the results depend on the processing

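The genotype comparison called 0 of the 9 genes except in 2 fits that do not take the clone as the replicate: 4 with all 20 libraries as independent (4737 genes in all) and 1, Dusp4, with the clone as a random block (1398 genes). Leaving out 1 clone, with the lone clone assumed to vary like the others, gave 0 throughout. Directions turned without control clone 1 for Etv4 (-0.03), Etv5 (-0.19), Dusp6 (-0.44), Spry1 (-0.17) and Spred1 (-0.17), and without T-ERG clone 2 for Spry1 (-0.05). The other end of these ranges came without control clone 2, with 1.28 for Etv4, 0.84 for Etv5, 0.95 for Dusp6, 0.51 for Spry1 and 0.31 for Spred1. The replicate block on clone number also called 0 genes, with Dusp4 at -1.35 (limma adjusted p = 0.204). Deviations of same-numbered clones correlated by 0.17, over 1 pair of genotypes. Dome numbers correlated by -0.01 to 0.05 in T-ERG, where no dome block was run because 2 columns carry no number, and by 0.01 to 0.06 in control, where the replicate block on dome number called 7.

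Requiring a mean of 5 FPKM left fewer of the 9 in the test, with 1 called between T-ERG clones and 4 between control clones. Leaving out 1 library gave 1 to 2 in T-ERG, 7 throughout in control and 2 to 3 for the interaction. For the interaction, quantile normalization turned Spry1 (0.05), and swapping T-ERG clone numbers gave 7 calls with Etv1 at -0.22 and Spry2 at 0.20. Where not stated otherwise, the cause of these changes was not tested. Over all genes, median centring changed the control clone calls to 2390 higher and 2287 lower, against 3233 and 1706, and quantile normalization changed the interaction to 1643 higher and 1743 lower, against 1258 and 2150, while swapped numbers gave 5559 calls against 3408. The median r was 0.45 without T-ERG clone 2, -0.15 without control clone 2, 0.34 without control clone 1 and 0.19 without T-ERG clone 1. Spry1, Etv1 and Spry4, near or below 1 FPKM, are least precise, and depth is unknown.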
